A study of Mus musculus with 11 samples.

Results

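Astrocytes were taken from single-cell RNA sequencing of the mouse brain as the retained cells in which at least 4 of the 6 astrocyte genes Aqp4, Aldh1l1, Gja1, Slc1a2, Slc1a3 and Aldoc had a unique molecular identifier (UMI), with Aqp4 or Aldh1l1 among them, and in which fewer than 2 of 11 genes of other cell types were detected. A cell was retained with more than 500 genes, more than 1000 UMIs and less than 25% mitochondrial UMIs. The rule found 1246 astrocytes among 132437 retained cells of 11 libraries, and each library came from 1 mouse. Wild-type (WT) mice and mice lacking Lrg1 (leucine-rich alpha-2-glycoprotein 1) underwent sham surgery or middle cerebral artery occlusion followed by reperfusion (MCAO/R), a model of ischaemic stroke in which a filament blocks the artery and is then withdrawn. Of the WT mice 3 had sham surgery and 2 had MCAO/R (groups sham + WT and MCAO/R + WT), and of the Lrg1-/- mice 3 had each (groups sham + Lrg1-/- and MCAO/R + Lrg1-/-). WT animals were C57BL/6 males of 8 to 10 weeks. Lrg1-/- animals were 3 months old, carried a conventional (whole-body) deletion and had been backcrossed to C57BL/6N. The occlusion lasted 1 h, the right brain was dissociated, and the reperfusion time of the sequenced mice was not given for each group.

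The genotypes differed in breeder and age as well as in Lrg1, and the sex of the Lrg1-/- mice was not given in the sources used here. In the MCAO/R + Lrg1-/- group, astrocytes of replicates 1 and 2 held 259 and 298 UMIs of Xist, the transcript of the inactive X chromosome, and no UMI of the Y-linked genes measured. All Lrg1-/- libraries also carried haemoglobin and choroid plexus transcripts in astrocytes and in the remaining cells, with values given below. Genotype, breeder and age therefore cannot be told apart in these data, nor can sex in the libraries with Xist. The labels do not say whether tissue preparation differed between the genotypes, and such a difference could not be told apart either. Counts of called genes are also given without the libraries with Xist, and with those of few astrocytes.

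Astrocytes are the glia that line capillaries with their endfeet, clear glutamate and potassium from the extracellular space, couple to one another through gap junctions of connexin 43 and connexin 30, and supply neurons with lactate, cholesterol and glutamine. After ischaemia they become reactive. Reactive astrocytes enlarge their intermediate filaments, above all glial fibrillary acidic protein (GFAP), secrete acute-phase proteins and chemokines, and form the border of the lesion. Lrg1 is a secreted glycoprotein that binds endoglin and modifies signalling by transforming growth factor beta (TGF-beta).

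Astrocytes were a small share of the retained cells in each mouse, and the share was lower in the Lrg1-/- libraries. Sham + WT libraries held 217, 226 and 164 astrocytes, which was 1.57%, 2.29% and 1.74% of the retained cells. The MCAO/R + WT libraries held 131 and 351, or 1.32% and 2.82%. The sham + Lrg1-/- libraries held 26, 16 and 8 (replicates 1, 2 and 5), or 0.275%, 0.282% and 0.246%. The MCAO/R + Lrg1-/- libraries held 29, 47 and 31, or 0.45%, 0.262% and 0.0907%. Every WT library lay above every Lrg1-/- library, with means of 1.87% ± 0.378 (SD, n = 3) for sham + WT, 2.07% ± 1.06 (n = 2) for MCAO/R + WT, 0.268% ± 0.019 (n = 3) for sham + Lrg1-/- and 0.268% ± 0.18 (n = 3) for MCAO/R + Lrg1-/-. The rule itself set these shares, and they are given as a description.

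The rule acted unequally on the libraries. Cells with at least 4 of the 6 genes that were left out because they held 2 or more genes of other cell types numbered 2713. They were 59.9% to 63.2% of such cells in the WT libraries and 75.9% to 93% in the Lrg1-/- libraries. With those cells counted in, the share for sham + WT mice was 4.27%, 5.71% and 4.63%, and for MCAO/R + WT mice 3.52% and 7.24%. For sham + Lrg1-/- mice it was 1.14%, 1.66% and 3.54%, and for MCAO/R + Lrg1-/- mice 2.35%, 1.86% and 0.924%. By this count sham + Lrg1-/- replicate 5 lay just above MCAO/R + WT replicate 1. Among the members, 229 held 4 of the 6 genes, 390 held 5 and 627 held all 6, while 174 cells with 3 genes lay just outside the rule. All 6 were held by 48.4% to 63.4% of the members in the WT libraries and by 10.3% to 37.5% in the Lrg1-/- libraries. A single gene of another cell type was detected in 759 members, which was 54.4% to 62.6% of them in the WT libraries and 53.8% to 87.5% in the Lrg1-/- libraries.

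**Figure D1:**
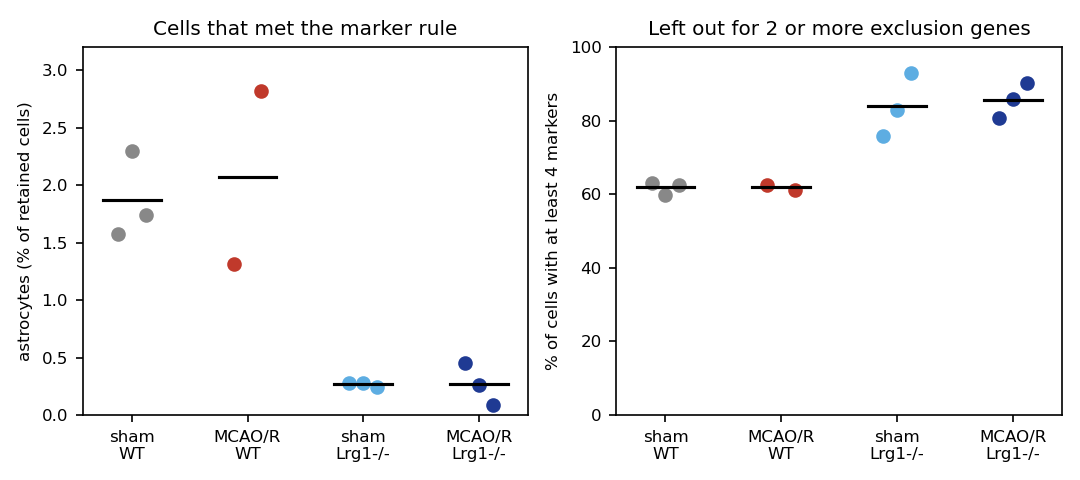
Astrocytes by library. The left panel gives the percent of retained cells that met the rule and the right panel the percent of cells with at least 4 of the 6 markers that were left out for 2 or more genes of other cell types, with a point for each mouse and a bar for the group mean. The Lrg1-/- libraries lie between 0.0907% and 0.45% on the left and between 75.9% and 93% on the right, while the WT libraries lie between 1.32% and 2.82% and between 59.9% and 63.2%.

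The 2 panels of the plot of astrocytes by library thus run in opposite directions. The Lrg1-/- libraries had a low percent of members and a high percent of cells with at least 4 markers left out. In number, 78 to 287 cells were left out in the Lrg1-/- libraries and 219 to 551 in the WT libraries. How much of the lower share came from the second panel was not tested.

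The label of the cells was checked on genes the rule did not use. The summed level of 15 further astrocyte markers, among them the sphingosine receptor S1pr1, connexin 30 (Gjb6), the claudin Cldn10 and the transcription factor Sox9, was 10033 to 17626 CPM (UMIs of a gene scaled to the same total of UMIs in every library) in astrocytes of the WT libraries and 6383 to 11667 CPM in those of the Lrg1-/- libraries. In the remaining retained cells it was 322 to 809 CPM. All 15 were detected in each of the 11 libraries. The genes of the rule chose the cells, so their levels are a description and check nothing. Aqp4, the water channel of the endfeet, stood at 735, 633 and 705 CPM in sham + WT, 749 and 447 CPM in MCAO/R + WT, 611, 294 and 291 CPM in sham + Lrg1-/- and 361, 470 and 415 CPM in MCAO/R + Lrg1-/- astrocytes. The glutamate transporter Slc1a2 stood at 9774, 10176 and 7966 CPM, at 8252 and 10698 CPM, at 5291, 6611 and 3064 CPM, and at 5194, 3619 and 3512 CPM in the same order of groups. All 6 genes together came to 13756 to 17763 CPM in WT and 5019 to 9694 CPM in Lrg1-/- astrocytes.

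Depth was uneven. The median astrocyte held 6200 to 10780 UMIs in the WT libraries and 3649 to 6893 UMIs in the Lrg1-/- libraries. The astrocytes of a library together held 38824 to 2982832 UMIs. The median share of mitochondrial UMIs was 3.52% to 6.38%. Cell barcodes shared between 2 libraries numbered 5 to 146 in each of 55 pairs of libraries, at most 1.15% of the smaller library, and none of them marked an astrocyte in both libraries. Differential expression was tested between mice, on the UMIs summed over the astrocytes of each library, in the 9 libraries with at least 20 astrocytes. Replicates 2 and 5 of the sham + Lrg1-/- group fell short of that number, so 1 library represented this group and was assumed to vary like the others. A gene was called when the adjusted p of edgeR's quasi-likelihood test was below 0.05 and the natural-log fold change exceeded 0.25 in either direction.

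After MCAO/R, WT astrocytes showed higher levels of glucocorticoid-responsive genes and of the reactive genes Gfap, Serpina3n and Cxcl10, and lower levels of 3 genes of cholesterol synthesis (Hmgcs1, Idi1 and Dhcr7). Of 13386 genes tested, 313 (2.34%) were called between the MCAO/R + WT and sham + WT groups, and 65, 46 and 71 without sham + WT replicate 1, 2 or 3, 195 without MCAO/R + WT replicate 1 and 976 without replicate 2. Of all genes, 215 (1.61%) were higher and 98 (0.732%) lower after MCAO/R. The lower genes include 1 that the rule used to leave cells out.

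Of the 13 genes on a list of glucocorticoid responses, 10 were higher, none was lower, and the median log2 fold change of the list was 2.36 against 0.02 over all genes tested. This and the other gene lists were chosen with earlier results of these data known, so such counts are not independent evidence of a direction. The gene with the smallest p, Fkbp5, encodes a co-chaperone that restrains the glucocorticoid receptor. Fkbp5 stood at 4.63, 3.05 and 4.75 CPM in the sham + WT mice and at 447 and 387 CPM in the MCAO/R + WT mice. The groups were far apart, and the log2 fold change (here and below with its SE) was 6.63 ± 0.38 (adjusted p = 3.64e-06 by edgeR). Zbtb16, a zinc-finger repressor induced by glucocorticoids, was at 31.1, 35.4 and 29.3 CPM after sham surgery and at 231 and 201 CPM after MCAO/R (2.75 ± 0.22, adjusted p = 9.14e-05). Cdkn1a, the cell-cycle inhibitor p21, was at 42.3, 17.1 and 33.3 CPM and then at 236 and 239 CPM (2.95 ± 0.37, adjusted p = 0.00185). In these genes the 2 MCAO/R mice had nearly the same level, which was not the case for the reactive genes below.

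Other members of the list include known mediators of the hormone. Sgk1, a kinase that regulates ion transport, stood at 38.3, 14.1 and 28.5 CPM in the sham + WT mice and at 154 and 122 CPM after MCAO/R (2.36 ± 0.36, adjusted p = 0.00513). Tsc22d3, the glucocorticoid-induced leucine zipper, stood at 93.2, 134 and 82.3 CPM and then at 341 and 421 CPM (1.88 ± 0.24, adjusted p = 0.00185). The period gene Per1 (1.37 ± 0.22, adjusted p = 0.00604), the transcription factor Klf9 (0.93 ± 0.21, adjusted p = 0.0425) and the sulfotransferase Sult1a1 (2.50 ± 0.34, adjusted p = 0.00256) were called too. Plin4, which coats lipid droplets, and the kinase gene Map3k6 were nearly silent in sham astrocytes. Plin4 had 1 UMI after sham surgery and 217 UMIs after MCAO/R, a ratio of 227 (95% counting interval 40.4 to 9016), and Map3k6 had 2 and 150 UMIs, a ratio of 78.5 (21.4 to 654). The remaining cells of the same libraries moved as well, with Fkbp5 at a mean of 18.3 CPM after sham surgery and 371 CPM after MCAO/R. Without 1 library the list had 7 to 10 called members, with 8, 7 and 7 when sham + WT replicate 1, 2 or 3 was left out.

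Promoters of these genes are shown because their members rose together. RefSeq promoters of the GRCm38.p6 build were searched on both strands, over the 250 bases before each annotated start, for the half-site of the glucocorticoid receptor, TGTTCT, and for its palindrome, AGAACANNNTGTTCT. Of the 10 called genes, 9 were matched to 18 promoters, and 5 promoters of 3 genes (Sgk1, Sult1a1 and Tsc22d3) held the half-site, which 16.1% of all 32851 promoters held. The palindrome, which contains the half-site on both strands, was found in 3 promoters of all, or 0.00913%, and 1 of them was a promoter of Sgk1. The glucocorticoid motifs were not among those planned. Of the planned motifs, the same 18 promoters held the hypoxia core ACGTG in 5 (5 genes), against 16.6% of all promoters. The STAT palindrome TTCNNNGAA was in 4 (4 genes), against 7.02%, and the metal response core in 7, against 44.4%. The heat shock palindrome was in 2, against 6.69%, and the AP-1 motif in 0, against 4.46%. Half-sites are in capitals below, and the stretch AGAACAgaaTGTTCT of Sgk1 is the palindrome.
Sgk1, chr10:21993640-21993889, plus strand: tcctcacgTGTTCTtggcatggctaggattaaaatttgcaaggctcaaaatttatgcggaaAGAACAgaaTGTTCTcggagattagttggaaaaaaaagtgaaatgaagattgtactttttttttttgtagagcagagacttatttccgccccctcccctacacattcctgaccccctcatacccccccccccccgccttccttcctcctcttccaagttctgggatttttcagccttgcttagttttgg
Tsc22d3, chrX:140600523-140600772, minus strand: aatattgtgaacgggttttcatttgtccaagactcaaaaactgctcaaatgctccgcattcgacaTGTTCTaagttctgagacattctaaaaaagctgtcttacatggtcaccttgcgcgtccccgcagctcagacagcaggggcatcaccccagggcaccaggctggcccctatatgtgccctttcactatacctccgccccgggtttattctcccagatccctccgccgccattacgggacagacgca
The palindrome of Sgk1 starts at position -189 and another half-site at -242, counted from the annotated start, and the half-site of Tsc22d3 starts at -185. A match describes the letters only. The reads came from the 3′ ends of transcripts and do not tell which of several starts was used.

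Reactive genes were higher on average after MCAO/R, but the 2 mice differed widely. Of 13 pan-reactive genes, which rise in reactive astrocytes after many kinds of injury, 5 were called higher and none lower (median log2 fold change 3.01). Gfap stood at 93.2, 74.5 and 127 CPM in the sham + WT mice and at 1267 and 251 CPM in the MCAO/R + WT mice (2.95 ± 0.71, adjusted p = 0.0486). Serpina3n, a serine protease inhibitor of the acute phase, stood at 1.98, 4.28 and 9.5 CPM and then at 459 and 72.3 CPM (5.67 ± 0.75, adjusted p = 0.00218). For both genes MCAO/R + WT replicate 1 was several-fold above replicate 2, and replicate 2 was still above the sham mice. The oncostatin M receptor Osmr stood at 20.5, 14.7 and 19.8 CPM and then at 259 and 42.5 CPM (3.01 ± 0.63, adjusted p = 0.0284). The chemokine Cxcl10 stood at 33.1, 50.7 and 30.1 CPM and then at 1410 and 66.0 CPM (4.26 ± 0.85, adjusted p = 0.0244). Lcn2, the iron-binding lipocalin 2, stood at 0.661, 0 and 0 CPM and then at 718 and 62.6 CPM, from 1 UMI and 1241 UMIs, a ratio of 1300 (95% counting interval 233 to 51369). The remaining cells held more of it, at a mean of 4.77 CPM after sham surgery and 835 CPM after MCAO/R, and the share of astrocytes with Lcn2 is set beside that of oligodendrocytes below.

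The filament gene Vim (log2 fold change 1.44, adjusted p = 0.166) and the hyaluronan receptor gene Cd44 (3.23, adjusted p = 0.0846) did not pass the test in the 9 libraries. A fit of all 11 libraries called 362 of 7472 genes (4.84%) between the same WT groups, 227 higher (3.04%) and 135 lower (1.81%). In it 7 of 11 pan-reactive genes were higher, Cd44 (adjusted p = 0.0289 by edgeR) and the protease inhibitor Timp1 (adjusted p = 0.0218) among them. In the 9 libraries, members called higher numbered 4 of 11 on the A1 list, named for the inflammatory state induced by microglia, and 3 of 12 on the A2 list, named for the ischaemic state. Fewer members of these lists were called without MCAO/R + WT replicate 1, and more without replicate 2. The count over all genes moved in the same way. Each of these fits kept 1 MCAO/R + WT mouse. Leaving out any of the 3 sham + WT libraries left 1 pan-reactive gene. Over all genes 65, 46 and 71 were then called, without replicate 1, 2 or 3. The fold change of Gfap was 1.36 on the log2 scale without MCAO/R + WT replicate 1 and did not pass the test, and it was 3.66 without replicate 2. Osmr and Cxcl10 did not pass without MCAO/R + WT replicate 1 either, at 1.22 and 0.78. Serpina3n passed in each of 9 fits that left out a library, with 3.81 without MCAO/R + WT replicate 1. Gbp2, an interferon-induced GTPase on the A1 list, stood at 300.1 CPM in replicate 1 and 2.77 CPM in replicate 2, within the range of 3.05 to 5.54 CPM in the sham mice, and its log2 fold change was -0.63 without replicate 1.

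**Figure D2:**
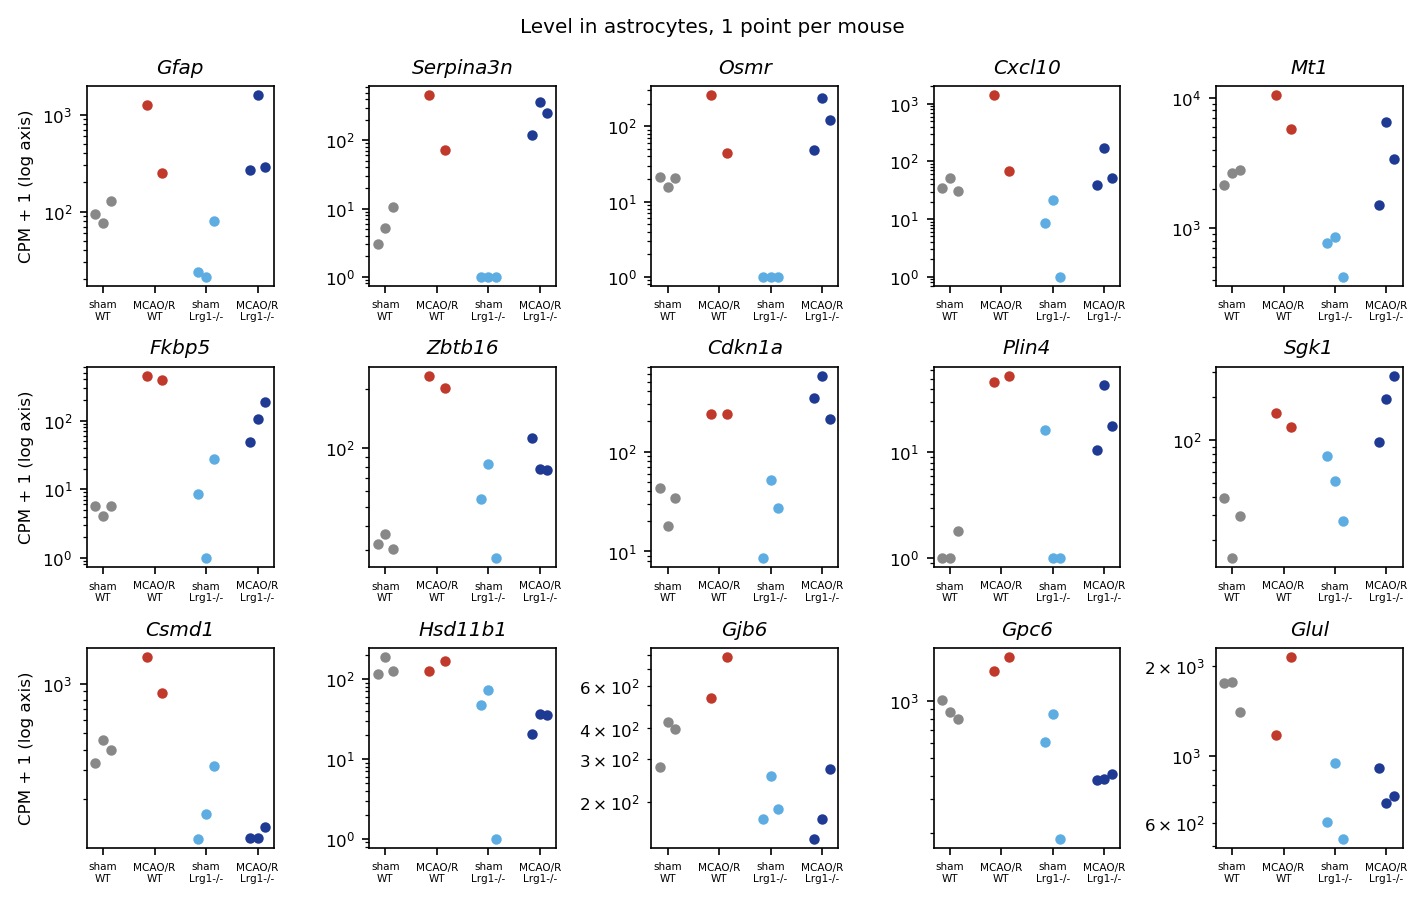
Levels of 15 genes in the astrocytes of each mouse, in CPM plus 1 on a log axis, by group. The 2 MCAO/R + WT mice nearly coincide for Fkbp5 (447 and 387 CPM) and lie apart for Gfap (1267 and 251 CPM) and Cxcl10 (1410 and 66.0 CPM), and the 3 MCAO/R + Lrg1-/- mice lie below both MCAO/R + WT mice for Csmd1, Hsd11b1, Gjb6, Gpc6 and Glul.

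The plot of 15 genes by mouse sets these behaviours side by side. Genes of the glucocorticoid list form tight pairs in the MCAO/R + WT group, while the reactive genes form pairs that are wide apart on the log axis.

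Inflammatory and stress genes were called in part. On a list of chemokines and cytokines 2 of 13 were higher, on an interferon list 2 of 14, on a list of complement and antigen presentation 2 of 10 and among the targets of the oxidative stress factor Nrf2 3 of 10, where 1.61% of all genes were higher. The interferon list summed to 341 to 473 CPM in the sham + WT mice, to 1984 CPM in MCAO/R + WT replicate 1 and to 467 CPM in replicate 2, and the Nrf2 targets to 668 to 765 CPM, to 1341 CPM and to 629 CPM. With all 11 libraries 5 of 11 chemokines and cytokines were higher, namely Ccl2, Ccl3, Cxcl2, Cxcl10 and Csf1. The chemokine gene Ccl3 stood at 72.7, 58.0 and 61.8 CPM in the sham + WT mice and at 224 and 222 CPM after MCAO/R (1.80 ± 0.20, adjusted p = 0.000922). Its mean level in the remaining cells was 628 CPM after sham surgery and 1670 CPM after MCAO/R. The complement gene C4b stood at 22.5, 29.3 and 34.8 CPM and then at 134 and 89.6 CPM (1.95 ± 0.36, adjusted p = 0.0177), above the remaining cells, which were at 3.76 and 13.1 CPM. The Nrf2 targets were haem oxygenase 1 (Hmox1, 3.85 ± 0.92, adjusted p = 0.0474), thioredoxin reductase (Txnrd1, 1.71 ± 0.35, adjusted p = 0.0256) and glutathione reductase (Gsr, 1.08 ± 0.26, adjusted p = 0.0496). Hmox1 was at 376 CPM in MCAO/R + WT replicate 1 and at 19.7 CPM in replicate 2, next to 8.55 to 19.8 CPM in the sham mice, and its log2 fold change was 0.56 without replicate 1, which did not pass.

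Metallothioneins, which bind zinc and copper, did not pass the test in the 9 libraries and passed it with all 11. Mt1 stood at 2138, 2625 and 2770 CPM in the sham + WT mice and at 10475 and 5789 CPM in the MCAO/R + WT mice (1.70 ± 0.46, adjusted p = 0.0774), and Mt2 at 424, 455 and 455 CPM and at 2226 and 891 CPM (1.81 ± 0.48, adjusted p = 0.0747). Both MCAO/R mice lay above all 3 sham mice for both genes. In the fit of all 11 libraries Mt1 (1.70, adjusted p = 0.0333 by edgeR) and Mt2 (1.81, adjusted p = 0.0292) were higher. In the 9 libraries no member was called on the lists of heat shock (15 genes), the integrated stress response (12) and immediate early genes (18), while all 11 gave Slc7a5, an amino acid transporter gene of the second list (1.13, adjusted p = 0.0255 by edgeR).

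Among metabolic genes, 3 of 19 genes of cholesterol synthesis and lipid transport were lower and none was higher. Hmgcs1, which makes the precursor of mevalonate, stood at 249.9, 243 and 223 CPM in the sham + WT mice and at 108 and 111 CPM after MCAO/R (-1.12 ± 0.21, adjusted p = 0.0187). Idi1, the isopentenyl diphosphate isomerase (-1.09 ± 0.21, adjusted p = 0.0208), and Dhcr7, which makes cholesterol in the last step (-1.36 ± 0.24, adjusted p = 0.0141), were lower as well. The glucose transporter Slc2a1 was the single called gene of 24 genes of glycolysis, glycogen and lactate. Slc2a1 stood at 175, 142 and 182 CPM and then at 453 and 466 CPM (1.47 ± 0.34, adjusted p = 0.0447).

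No gene was called on 3 lists of other astrocyte functions, whose size leaves little room for calls where 2.34% of all genes were called. None of 16 genes of glutamate, potassium and water handling passed (median log2 fold change -0.31), none of 15 receptors (-0.43), and none of 19 synapse and matrix proteins (-0.33). The glutamine transporter gene Slc38a3, the receptor genes Grm3 and S1pr1 and the tenascin gene Tnc of these lists were called lower with all 11 libraries, against 1.81% of all genes. The stem cell and Notch list had 2 lower genes of 16, Fabp7, a fatty acid binding protein of radial glia (-1.56 ± 0.30, adjusted p = 0.0194), and Hopx, a marker of quiescent stem cells (-1.39 ± 0.26, adjusted p = 0.0181). Mfge8, a bridging protein for phagocytosis and a marker of telencephalic astrocytes, was lower (-1.17, adjusted p = 0.0285).

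Among genes selected by size of change, with no overlap between the mice and at or above the remaining cells, the largest falls were in Rpe65, Tenm4 and Unc13c. Rpe65, the retinoid isomerase of the eye, stood at 31.7, 26.9 and 36.4 CPM in the sham + WT mice and at 3.39 and 4.15 CPM after MCAO/R (-2.99 ± 0.40, adjusted p = 0.00407). Unc13c, a relative of the vesicle priming proteins, stood at 244, 219 and 152 CPM and then at 38.6 and 43.9 CPM (-2.30 ± 0.37, adjusted p = 0.00623). The other 7 named falls ran from -2.16 in the laminin gene Lama3 to -1.75 in Mpped2 (Rbfox1, Sema5b, Slc30a10, Plagl1 and Disp3 lay between), and Tenm4 was at -2.48. By the same selection, rises outside the lists were in Pappa, Adam12, Slc10a6, Syt2, Stk32a and Nlrc5. Pappa, a protease that frees insulin-like growth factors, had 1 UMI after sham surgery and 157 UMIs after MCAO/R, a ratio of 164 (95% counting interval 29.1 to 6534), but its level was 101.6 CPM in replicate 1 and 2.42 CPM in replicate 2. The metalloprotease gene Adam12 (215 and 2.42 CPM, against 1.22 to 1.58 CPM in the sham mice) and Nlrc5, the activator of MHC class I genes (70.5 and 4.50 CPM, against 0.661 to 2.38 CPM), showed the same split between the MCAO/R mice. Without replicate 1 neither passed, with log2 fold changes of 0.77 and 1.43.

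Some markers of other cell types were called between the WT groups, where 1.61% of all genes were higher. Called members were 1 of 8 for oligodendrocytes (Mal) and 2 of 5 for neurons (Stmn2 and Tubb3), and none for red blood cells, choroid plexus, microglia, macrophages and neutrophils, endothelium, mural cells and ciliated ependyma. The microglial gene P2ry12, which the rule used to leave cells out and which is given as a description, stood at 23.8, 24.4 and 29.3 CPM in the sham + WT and at 2.71 and 6.22 CPM in the MCAO/R + WT astrocytes, and the remaining cells fell from a mean of 587 CPM to 88.0 CPM. The summed neuronal markers were at 36.6 to 68.8 CPM in the sham + WT and 106 to 121 CPM in the MCAO/R + WT astrocytes, and their part in the called genes was not tested. By the larger of 2 sums of regional genes, 68.2%, 73.0% and 53.0% of the sham + WT astrocytes and 42.0% and 41.9% of the MCAO/R + WT astrocytes were classed as telencephalic. The telencephalic genes summed to 1941 to 2453 CPM in sham + WT and 926 to 1296 CPM in MCAO/R + WT astrocytes. The non-telencephalic genes summed to 1106 to 2533 CPM and 1583 to 1875 CPM. Whether regional makeup or the level of these genes within cells shifted was not tested. The part of this shift in the called genes was not tested gene by gene, and with telencephalic astrocytes alone 689 genes were called, in a fit without Lrg1-/- libraries, where all astrocytes of the WT groups gave 477. Over all 11 libraries telencephalic astrocytes gave 185 of 4663 genes and all astrocytes 362 of 7472.

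Shares of cells carry the same picture when each cell is thinned to 2000 UMIs, so that depth is equal. Gfap was detected in 9.25%, 12.2% and 11.2% of sham + WT astrocytes and in 64.3% and 24.8% of MCAO/R + WT astrocytes, while oligodendrocytes of the same libraries, which should lack it, showed 0.369% to 0.803% and 1.11% to 1.89%. Serpina3n was detected in 39.1% and 12% of MCAO/R + WT astrocytes and in 20.2% and 11.2% of oligodendrocytes, so that in replicate 2 the cell types were nearly equal. Lcn2 was at 23.5% and 8.28% of astrocytes and at 22.4% and 13.7% of oligodendrocytes, close together in replicate 1 and higher in oligodendrocytes in replicate 2. Fkbp5 was detected in 48.7% and 45.4% of astrocytes and in 41.6% and 55.5% of oligodendrocytes, and Zbtb16 in 32.2% and 28.5% of astrocytes and 47.2% and 59.0% of oligodendrocytes. Fkbp5 was thus more frequent in astrocytes of replicate 1 and in oligodendrocytes of replicate 2, and Zbtb16 was more frequent in oligodendrocytes of both. Mt2 was detected in 52.6%, 44.2% and 44.8% of sham + WT astrocytes and 79.1% and 62.3% after MCAO/R, against 38.7% and 21.9% of oligodendrocytes after MCAO/R, and C4b in 24.3% and 16.3% of astrocytes against 5.09% and 3%.

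**Figure D3:**
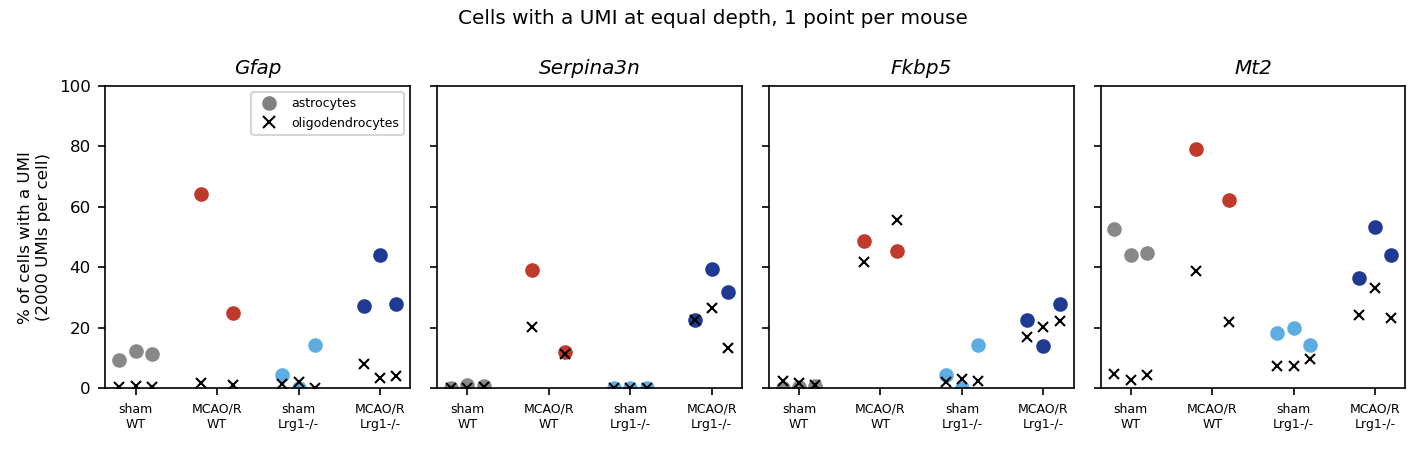
Percent of cells with at least 1 UMI of Gfap, Serpina3n, Fkbp5 and Mt2 after each cell was thinned to 2000 UMIs, by mouse, for astrocytes (dots) and oligodendrocytes (crosses). Gfap separates the cell types in every MCAO/R library (24.8% to 64.3% of astrocytes against at most 8.16% of oligodendrocytes), whereas the 2 cell types lie close together for Fkbp5 in the MCAO/R + WT mice.

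As the plot of shares of cells shows, detection of Gfap and Mt2 was higher in astrocytes than in oligodendrocytes of the same MCAO/R + WT library, while that of Fkbp5 was higher in astrocytes of replicate 1 and lower in those of replicate 2. Within MCAO/R + WT replicate 1, 74 of 115 thinned astrocytes had Gfap, 45 had Serpina3n and 38 had both, where independence would give 29.0. In replicate 2 the numbers were 81, 39 and 16 of 326, where independence would give 9.69. For Gfap and Fkbp5 together the numbers were 31 and 39, where independence would give 36.0 and 36.8. These are descriptions of cells of single mice.

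Whether astrocytes responded differently from other cells of the same mouse was tested with limma on the difference of log2 CPM between cell types within each library. The unit was the library, in the 9 libraries with at least 20 astrocytes. All 11 libraries together held 15393 oligodendrocytes and 17888 endothelial cells. Against oligodendrocytes, 96 of 13057 genes (0.735%) had a different response to MCAO/R in WT, 45 with the larger value in astrocytes and 51 with the smaller. For endothelial cells the count was 17 of 13072 (0.13%). Without sham + WT replicate 1, 2 or 3 the counts were 15, 14 and 14 against oligodendrocytes and 2, 3 and 5 against endothelial cells. With replicate numbers as a block both were 0. Zbtb16 changed less in astrocytes than in oligodendrocytes, where it stood at 21.1, 17.2 and 17.2 CPM after sham surgery and 420 and 574 CPM after MCAO/R, a difference in log2 response of -1.94. Far1, which makes fatty alcohols for ether lipids, was raised in astrocytes relative to both cell types (2.66 against oligodendrocytes with an adjusted p of 0.0036 by limma, 1.99 against endothelial cells). Mal, a myelin protein whose level fell in oligodendrocytes from 5934 to 6329 CPM to 3780 and 3910 CPM, had a difference of 2.05. Of the 13 glucocorticoid genes 1 was higher and 1 was lower in this test against oligodendrocytes.

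Lrg1 itself was measured in the astrocytes of the MCAO/R + WT mice only, at 40.6 and 12.4 CPM from 96 UMIs in all. None of the sham + WT libraries had a UMI in astrocytes, so that the level was at least 33.5-fold higher after MCAO/R than the limit set by 3 counts over the group. It was 0 in astrocytes of all 6 Lrg1-/- libraries, at least 4.76-fold below the MCAO/R + WT group. The remaining cells of the MCAO/R + WT libraries held more of it, with a mean of 124 CPM. Of 23 genes of TGF-beta and bone morphogenetic protein signalling, including the partners of Lrg1, 1 was higher after MCAO/R in WT. That was Id2, an inhibitor of differentiation, at 397, 415 and 512 CPM after sham surgery and 918 and 912 CPM after MCAO/R (1.06 ± 0.22, adjusted p = 0.0266). The receptor gene Tgfbr2 (log2 fold change 0.00), the endothelial receptor gene Acvrl1 (0.52), the coreceptor gene Eng (0.77) and the ligand gene Tgfb1 (0.17) did not pass the test.

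In Lrg1-/- astrocytes the response to MCAO/R could be tested against the single sham library with 20 or more astrocytes, and 3 of 13386 genes (0.0224%) were called, all lower. Shisa9, an auxiliary protein of AMPA receptors, stood at 336, 112 and 159 CPM in sham + Lrg1-/- replicates 1, 2 and 5 and at 28.9, 14.0 and 50.8 CPM after MCAO/R (-3.70 ± 0.47, adjusted p = 0.0256, fitted with replicate 1 alone as sham). Rgs6, a regulator of G-protein signalling, stood at 1405, 791 and 1479 CPM and then at 250.1, 354 and 389 CPM (-2.17 ± 0.29, adjusted p = 0.0256). In WT both genes were lower after MCAO/R as well, Shisa9 by -1.24 (adjusted p = 0.0347) and Rgs6 by -1.23 (adjusted p = 0.0208) on the log2 scale. Sntg1, a syntrophin, had 17 UMIs in the 26 astrocytes of sham + Lrg1-/- replicate 1 and was at 0 in all MCAO/R + Lrg1-/- libraries, at least 24.9-fold lower, while WT libraries were at 7.92 to 18.3 CPM. At an unadjusted p below 0.05 there were 1729 genes, and without the 2 libraries with Xist none was called.

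With all 11 libraries in the fit, and so with sham astrocytes of 3 mice but as few as 8 cells in a mouse, 444 of 7472 genes (5.94%) were called, 290 higher (3.88%) and 154 lower (2.06%). Over the same libraries, telencephalic astrocytes gave 7 of 4663 genes and thinned cells 28 of 1740. Cells with at least 5 of the 6 markers and no gene of another cell type gave 8 of 1916. In the fit of all astrocytes Gfap was higher after MCAO/R in Lrg1-/- mice (log2 fold change 4.58, adjusted p = 0.0142 by edgeR). It stood at 22.9, 20.3 and 79.3 CPM after sham surgery and at 265, 1585 and 288 CPM after MCAO/R. Fkbp5 (3.78, adjusted p = 0.0141), Cdkn1a (3.87, adjusted p = 0.00301), Tsc22d3 (1.35, adjusted p = 0.0351), Mt1 (2.43, adjusted p = 0.0091) and Slc2a1 (1.73, adjusted p = 0.0345) were called higher. Serpina3n was at 0 in all 3 sham + Lrg1-/- libraries and at 120.2, 361 and 254 CPM after MCAO/R. By list, 3 of 13 glucocorticoid, 2 of 11 pan-reactive, 4 of 23 glycolytic, 2 of 3 metallothionein and 4 of 15 heat shock genes were higher. Markers of other cells moved with them. Of 8 microglial genes C1qb and Tyrobp were higher, and the list summed to 1588 to 2008 CPM after sham surgery and 1904 to 5297 CPM after MCAO/R. Of 5 genes of macrophages and neutrophils Lyz2 and Plac8 were higher, and the sum of the 8 genes on that list was 81.1 to 106 CPM and then 139 to 2336 CPM. Xist was called higher and the Y-linked Eif2s3y and Uty lower. The part of these cells and of sex in the called genes was not tested. Lower genes included the bicarbonate transporter Slc4a4 (-1.23, adjusted p = 0.00956) and the GABA transporter Slc6a11 (-1.65, adjusted p = 0.00934), 2 of 16 genes of glutamate, potassium and water handling.

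After MCAO/R, Lrg1-/- astrocytes had lower levels than WT astrocytes of many genes typical of astrocytes and higher levels of genes typical of other cells. Of 13386 genes 325 (2.43%) were called, with 172 (1.28%) raised and 153 (1.14%) lowered in Lrg1-/- relative to WT. The lowered genes include 2 markers of the rule, whose levels are a description. Leaving out 1 library gave from 65 genes (without MCAO/R + Lrg1-/- replicate 2) to 738 (without MCAO/R + WT replicate 1). Among the 172 higher genes 7 (4.07%) were above the remaining cells in sham + WT astrocytes, and among the 151 lower genes outside the rule 139 (92.1%) were, compared with 49.5% of all genes tested. The size factors of the RLE method gave 293 genes, 193 higher and 100 lower. Without the 2 libraries with Xist, which leaves replicate 5 alone in the MCAO/R + Lrg1-/- group, 39 genes were called, 33 higher and 6 lower. Gpc6 and Csmd1 were then still called lower, and no gene was called on the lists of glutamate, potassium and water handling, cholesterol synthesis and lipid transport, fatty acid oxidation, glucocorticoid responses or heat shock. With each cell thinned to 2000 UMIs 10 were called, in a fit where replicate 2 was the single MCAO/R + Lrg1-/- library with 20 or more astrocytes, and 136 of 1740 with all 11 libraries. The 2 directions thus differed in whether a gene exceeded the remaining cells in sham + WT astrocytes.

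**Figure D4:**
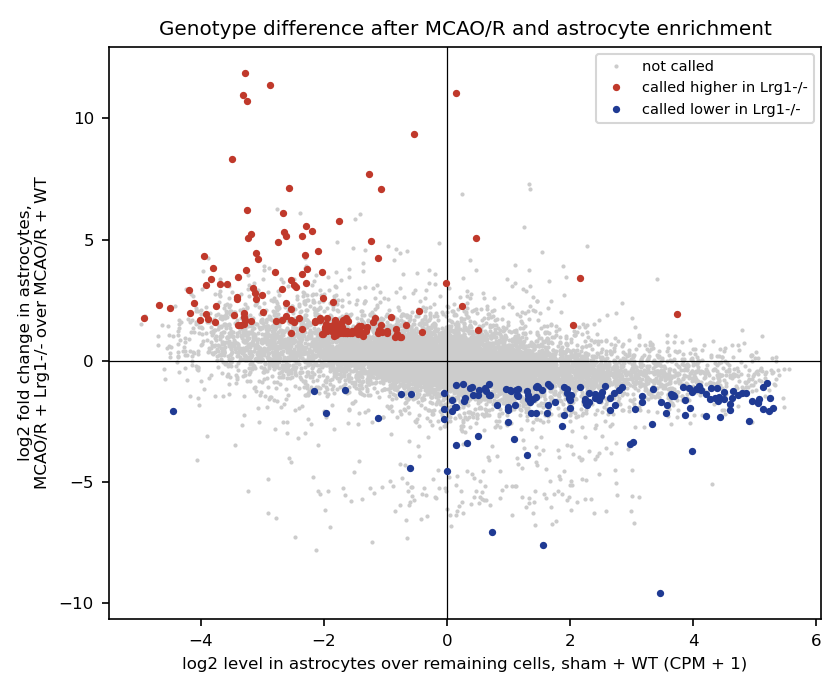
Each point is a gene tested, with the log2 ratio of its level in astrocytes to that in the remaining cells of the sham + WT libraries (CPM + 1) on the x axis and the log2 fold change of MCAO/R + Lrg1-/- over MCAO/R + WT astrocytes on the y axis, called genes in colour. Called genes that were lower lie mainly to the right, where 139 of 151 exceed the remaining cells, and called genes that were higher lie mainly to the left, where 7 of 172 do.

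The plot of fold change against astrocyte enrichment puts the haemoglobin genes in its upper left and Csmd1, Gpc6 and Gjb6 in its lower right. Transcripts of other cells in the same astrocyte libraries moved with these results, where 1.28% of all genes were higher. All 4 haemoglobin genes were called higher, and their summed level was 14263 to 145440 CPM in the 6 Lrg1-/- libraries and 9.34 to 45.9 CPM in the 5 WT libraries, which is 1.43% to 14.5% of the scaled astrocyte totals in Lrg1-/- mice. Hbb-bs had a log2 fold change of 10.71 (adjusted p = 9.21e-07). Of 7 choroid plexus genes tested 5 were higher, with a summed level of 8 genes at 3216 to 45361 CPM in Lrg1-/- and 150.1 to 707 CPM in WT astrocytes, and Ttr, the transthyretin made there, had a log2 fold change of 6.24 (adjusted p = 0.0122). Hbb-bs was detected in at least 75.5% of thinned oligodendrocytes of the Lrg1-/- libraries, so it was not confined to astrocytes there. In the WT libraries it was detected in at most 5.59% of thinned astrocytes. Of 8 microglial genes 4 were higher, at sums of 1904 to 5297 CPM in MCAO/R + Lrg1-/- and 958 to 1288 CPM in MCAO/R + WT astrocytes. Of 8 genes of macrophages and neutrophils 5 were higher, at 139 to 2336 CPM against 39.4 to 40.0 CPM. Telencephalic astrocytes were 48.3%, 34.0% and 41.9% in the MCAO/R + Lrg1-/- mice, next to 42.0% and 41.9% in the MCAO/R + WT mice. The part of these transcripts in the lower level of astrocyte genes was not tested.

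**Figure D5:**
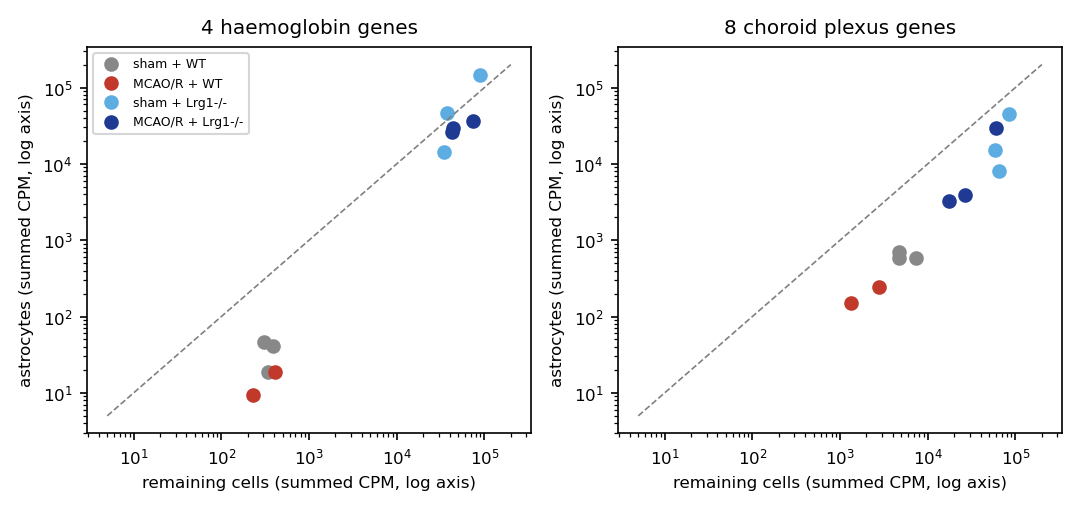
Summed CPM of 4 haemoglobin genes (left) and 8 choroid plexus genes (right) in astrocytes (y axis) against the remaining cells of the same library (x axis), both on log axes, with a point for each mouse and a dashed line where both are equal. The totals were scaled by the TMM method in astrocytes and unscaled in the remaining cells. Haemoglobin in astrocytes is at 9.34 to 45.9 CPM in the 5 WT libraries and at 14263 to 145440 CPM in the 6 Lrg1-/- libraries, which separates the genotypes after both surgeries.

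In the plot of haemoglobin and choroid plexus transcripts the genotypes did not overlap on either axis for haemoglobin. The remaining cells held 232 to 410 CPM of haemoglobin in the WT libraries, above the astrocytes. In the sham + Lrg1-/- libraries the remaining cells spanned 34430 to 89888 CPM and the astrocytes 14263 to 145440 CPM.

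Of the genes that shape synapses and matrix, 5 of 19 were lower and none was higher (median -0.80, against -0.09 over all genes). Of all genes 1.14% were lower, and 139 of the 151 outside the rule exceeded the remaining cells in sham + WT. Counts on lists of astrocyte genes, here and below, stand against that. Gpc6, a glypican that recruits AMPA receptors to young synapses, stood at 1432 and 1695 CPM in the MCAO/R + WT mice and at 380, 382 and 406 CPM in the MCAO/R + Lrg1-/- mice (-2.16 ± 0.23, adjusted p = 0.000643). It kept its call in all 9 fits that left out a library. The synaptogenic thrombospondin gene Thbs4 stood at 159 and 40.5 CPM and at 4.81, 14.0 and 0 CPM (-3.72 ± 0.79, adjusted p = 0.0295), and the hevin gene Sparcl1 at 1910 and 2388 CPM and at 1149, 747 and 575 CPM (-1.52 ± 0.31, adjusted p = 0.0254). The protease inhibitor Timp4 (-1.77) and the engulfment receptor Megf10 (-1.54) were the others. Without the libraries with Xist, Gpc6 (-2.17) was the single called gene of these 19.

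Of 16 genes of glutamate, potassium and water handling 3 were lower and none higher, where 1.14% of all genes were lower. Gjb6, the gap junction protein connexin 30, stood at 530 and 786 CPM in the MCAO/R + WT mice and at 139, 168 and 271 CPM in the MCAO/R + Lrg1-/- mice (-1.98 ± 0.30, adjusted p = 0.00756). Glul, the glutamine synthetase, stood at 1177 and 2136 CPM and at 909, 694 and 736 CPM (-1.24 ± 0.29, adjusted p = 0.0457), but it was at -0.68 and did not pass without MCAO/R + WT replicate 2. Atp1b2, a subunit of the sodium pump, stood at 683 and 758 CPM and at 337, 393 and 347 CPM (-1.15 ± 0.21, adjusted p = 0.0174). None of the 3 passed without the libraries with Xist, at -1.50 for Gjb6, -1.39 for Glul and -1.28 for Atp1b2. At 2000 UMIs per cell, Gjb6 was detected in 57.4% and 65.0% of MCAO/R + WT astrocytes and in 18.2%, 23.3% and 32.0% of MCAO/R + Lrg1-/- astrocytes. Of the 15 astrocyte markers outside the rule 5 were lower, namely Cldn10 (-2.08, adjusted p = 0.0143), Gjb6, S1pr1 (-1.08), Gpr37l1 (-1.08) and the acyl-CoA synthetase Acsbg1 (-0.90), but 2 were called with size factors of the RLE method and none without the 2 libraries with Xist.

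Lipid genes were lower in part, where 1.14% of all genes were lower. On the list of cholesterol synthesis and lipid transport 3 of 19 were lower, the apolipoprotein J gene Clu (-1.17 ± 0.24, adjusted p = 0.0276), Msmo1 (-1.19) and Sqle (-1.15), the latter 2 being enzymes of cholesterol synthesis. Of 15 genes of fatty acid oxidation 3 were lower. Acsl6, which activates long-chain fatty acids, stood at 307 and 488 CPM in the MCAO/R + WT mice and at 125, 126 and 152 CPM in the MCAO/R + Lrg1-/- mice (-1.74 ± 0.26, adjusted p = 0.007). Its relative Acsl3 stood at 948 and 1628 CPM and at 558, 319 and 465 CPM (-1.69 ± 0.30, adjusted p = 0.0143). Without the libraries with Xist no gene of either list passed, at -1.61 for Acsl6 and -1.25 for Clu.

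The glucocorticoid list had 2 lower genes of 13 and none higher (median -0.96), where 1.14% of all genes were lower. Fkbp5 stood at 447 and 387 CPM in the MCAO/R + WT mice and at 48.1, 105.2 and 186 CPM in the MCAO/R + Lrg1-/- mice (-2.14 ± 0.33, adjusted p = 0.00762). Zbtb16 stood at 231 and 201 CPM and at 110.6, 77.2 and 76.2 CPM (-1.43 ± 0.24, adjusted p = 0.0136). Neither passed without the libraries with Xist, at -1.38 and -1.72. The remaining cells differed in the same direction, with mean levels of Fkbp5 of 371 CPM in the MCAO/R + WT and 81.5 CPM in the MCAO/R + Lrg1-/- libraries. No gene of the pan-reactive and A2 lists was called between the genotypes in the 9 libraries, and with all 11 Cxcl10 was called lower (-2.96, adjusted p = 0.0441 by edgeR). Gfap stood at 1267 and 251 CPM in WT and at 265, 1585 and 288 CPM in Lrg1-/- mice after MCAO/R, so that the groups overlapped (-0.19 ± 0.69, adjusted p = 0.928), and Serpina3n at 459 and 72.3 CPM and at 120.2, 361 and 254 CPM (-0.24 ± 0.61, adjusted p = 0.893). With standard errors of this size the mice available leave wide limits on any difference in these genes.

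The gene with the smallest p among those lower was Csmd1, a regulator of complement at synapses. Csmd1 stood at 1446 and 877 CPM in the MCAO/R + WT mice and at 115, 116 and 135 CPM in the MCAO/R + Lrg1-/- mice (-3.42 ± 0.28, adjusted p = 6.32e-05). In WT it was higher after MCAO/R than after sham surgery, where it stood at 329, 454 and 399 CPM (1.56 ± 0.24, adjusted p = 0.00574). At 2000 UMIs per cell, 46.1% and 52.5% of MCAO/R + WT and 13.6%, 11.6% and 12% of MCAO/R + Lrg1-/- astrocytes had a UMI, while 1.89% and 2.21% of oligodendrocytes of the WT libraries did. Hsd11b1, which regenerates active glucocorticoid, stood at 126 and 167 CPM and at 19.2, 35.1 and 33.9 CPM (-2.47 ± 0.36, adjusted p = 0.00626), and the remaining cells were at 4.17 and 4.50 CPM. Slc37a4, the glucose-6-phosphate transporter, stood at 51.5 and 74.0 CPM and at 4.81, 10.5 and 8.46 CPM (-3.09 ± 0.47, adjusted p = 0.00762). Csmd1, Hsd11b1 and Slc37a4 kept their calls in all 9 fits that left out a library, but without both libraries with Xist Csmd1 did (-3.32) and Hsd11b1 (-2.34) and Slc37a4 (-3.11) did not. Other named genes with lower levels were Hddc2 (-2.51), Ino80dos (-2.67), Gpr158 (-2.61) and Nkain4 (-2.30). Gpr158 turned to 0.97 with cells thinned to 2000 UMIs, where replicate 2 alone represented the MCAO/R + Lrg1-/- group. Phf24 had 195 UMIs in the MCAO/R + WT and 2 UMIs in the MCAO/R + Lrg1-/- astrocytes, a ratio of 14.5 (95% counting interval 3.96 to 121) after correction for depth, and for Tmem52 it was 23.8 (4.21 to 946).

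Among the higher genes selected by size of change was Gdf15. Gdf15, a stress-induced cytokine, stood at 1.36 and 2.42 CPM in the MCAO/R + WT mice and at 19.2, 894 and 8.46 CPM in the MCAO/R + Lrg1-/- mice (7.15 ± 1.42, adjusted p = 0.0248), so that replicate 2 held nearly all of it. The chaperone gene Hspa1b stood at 4.74 and 3.11 CPM and at 14.4, 389 and 16.9 CPM (5.22 ± 1.09, adjusted p = 0.0288), with the same replicate high. Without that replicate the log2 fold changes were 2.71 for Gdf15 and 1.87 for Hspa1b, and neither passed. Cryab, a small heat shock protein, stood at 138 and 107 CPM and at 255, 691 and 432 CPM (1.77 ± 0.34, adjusted p = 0.0206). Hspa1b and Cryab were 2 of 15 heat shock genes, where 1.28% of all genes were higher. Oligodendrocytes express Cryab strongly, and their part in its level here was not tested. The summed markers of oligodendrocytes were 789 to 1963 CPM in MCAO/R + Lrg1-/- and 445 to 923 CPM in MCAO/R + WT astrocytes. The genotype difference of Cryab was larger in astrocytes than in oligodendrocytes of the same mice, by 1.84 on the log2 scale. Under the strict rule, which needed 5 of the 6 markers and no gene of another cell type, the log2 fold change of Cryab was -0.33. That fit held all 11 libraries, with 5, 9 and 3 cells in the MCAO/R + Lrg1-/- libraries. Plac8, a gene of the list of macrophages and neutrophils whose sums are given above, stood at 2.03 and 0.692 CPM and at 86.6, 31.6 and 135 CPM (5.75 ± 0.78, adjusted p = 0.00516), and Ttll7 (1.66), Sorbs2 (1.54), Lhfpl2 (1.47), Syt4 (4.96), Dnah11 (3.80) and the sulfiredoxin gene Srxn1 (2.25) were also called. With thinned cells, and replicate 2 alone in the MCAO/R + Lrg1-/- group, Sorbs2 turned to -0.76 and Lhfpl2 to -0.11.

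Of 4 adhesion genes that the study had picked from these samples, Cldn11 was higher, a claudin of myelin. Cldn11 stood at 17.6 and 37.7 CPM in the MCAO/R + WT mice and at 91.4, 101.7 and 279 CPM in the MCAO/R + Lrg1-/- mice (2.17 ± 0.50, adjusted p = 0.0441), below the remaining cells at 420 and 308 CPM. Anxa2 (1.14, adjusted p = 0.345), Itgb5 (-0.12, adjusted p = 0.875) and Pcdh9 (0.12, adjusted p = 0.871) did not pass the test, and the list is not independent evidence of a direction. Of the 23 TGF-beta and bone morphogenetic protein genes 2 were lower, Id2 (-0.97 ± 0.23, adjusted p = 0.0454) and Id4. Of all genes 1.14% were lower and 1.28% higher. Without the libraries with Xist no gene of either list was called. Tgfb1 was at 17.6 and 14.5 CPM in WT and at 24.0, 59.6 and 50.8 CPM in Lrg1-/- mice after MCAO/R (1.34 ± 0.50, adjusted p = 0.19).

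Compared with oligodendrocytes of the same mice, the difference between the MCAO/R + Lrg1-/- and MCAO/R + WT groups was itself different for 54 of 13057 genes (0.414%), 22 with the larger value in astrocytes and 32 with the smaller. Clu, Hsd11b1, the potassium channel gene Kcnk1 and the ligand gene Nrg1 had lower values in astrocytes than in oligodendrocytes, with differences of -3.67, -3.36, -4.08 and -4.01 on the log2 scale. Clu was at 17.0 and 30.6 CPM in oligodendrocytes of the MCAO/R + WT mice and at 156, 72.3 and 132 CPM in those of the MCAO/R + Lrg1-/- mice, so that it was lower in astrocytes and higher in oligodendrocytes of the Lrg1-/- libraries. Against endothelial cells the count was 59 of 13072 (0.451%), and 5 of 18 immediate early genes and all 4 haemoglobin genes had the larger value in astrocytes. No gene was called in these tests when replicate numbers entered as a block. Without sham + WT replicate 1, 2 or 3 the counts were 3, 3 and 0 against oligodendrocytes and 22, 16 and 19 against endothelial cells.

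After sham surgery 11 of 13386 genes (0.0822%) were called between Lrg1-/- and WT astrocytes, all higher in Lrg1-/-, with 1 library in the Lrg1-/- group. They were the 4 haemoglobin genes, the choroid plexus genes Folr1, Ecrg4, Enpp2, Ttr, Prlr and Otx2, and Sntg1. With all 11 libraries 127 of 7472 genes (1.7%) were called, 53 higher (0.709%) and 74 lower (0.99%), and 6 of 15 astrocyte markers outside the rule were lower, among them S1pr1 (-1.93) and Cldn10 (-1.82). The metallothionein genes Mt1 (-1.83) and Mt3 (-1.72), Clu (-1.49) and Glul (-1.21) were lower in the same fit. Clu stood at 1794, 2222 and 2611 CPM in the sham + WT and at 1038, 690 and 555 CPM in the sham + Lrg1-/- mice. The median log2 fold change of all genes was -0.09 in this fit and -0.26 in the fit of 9 libraries, and the values stand against that shift.

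Whether the response to MCAO/R differed between the genotypes was tested as an interaction in the same fit, and edgeR called none of 13386 genes. The lowest adjusted p was 0.0714, 1110 genes had an unadjusted p below 0.05, DESeq2 called 34 and the fit of all 11 libraries 1 of 7472 (0.0134%). A response in WT that was not called in Lrg1-/- mice is thus not shown to differ between them.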

How the data were processed

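The authors deposited a count matrix for each of 11 libraries (10x Genomics 3′ v3), with UMI counts of 32285 genes of the mm10 reference. The file headers name Cell Ranger 7.0.1, whereas the methods name version 5.0.0. Red blood cells had been lysed. Cells were filtered by the limits of the study, and the astrocyte rule was applied to raw counts. The members, gene lists and named genes were chosen with earlier results of these data known. Doublets were not removed from the main analysis. In an alternative, cells with a simulated-neighbour score in the top 6% of a library were left out.

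UMI counts were summed over the astrocytes of each library and tested with edgeR 4.0.16 (R 4.3.3, TMM, filterByExpr, quasi-likelihood test, Benjamini-Hochberg adjustment over all genes tested), with 4 groups in 1 fit of the libraries with at least 20 astrocytes. Responses of cell types were compared with limma 3.58.1 on differences of log2 CPM (prior count 2). This test gave false calls on simulated data where the sham + Lrg1-/- group had 1 library, so that comparison is not reported. DESeq2 1.42.0 was an alternative. Fits were tested on simulated data. Astrocyte totals of 38824 to 2982832 UMIs limit low genes. Intervals and floors (3 counts) cover counting error only. The labels do not state whether libraries of a group were prepared separately. Nor do they state whether replicate numbers pair mice.

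Named genes were the 10 largest changes in each direction among called genes with no overlap between mice, a mean of at least 20 CPM, and a level at or above the remaining cells, together with up to 4 examples from each list, Lrg1, and 8 genes in each direction for differences between cell types. Genes with at most 3 UMIs in a group are given as ratios with exact counting intervals.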

Additional observations from a re-analysis of the deposited data

Results flagged for a closer look

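The response of single genes in astrocytes was tested against that of oligodendrocytes and endothelial cells of the same mice with limma, and the genes with the largest differences that passed, and that also passed in an edgeR fit of both cell types, are given here as log2 differences (astrocytes minus the other cell type). None of these calls held when replicate numbers entered as a block, and the number of calls changed with the library left out. No explanation was tested.

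Between the MCAO/R + WT and sham + WT groups, astrocytes exceeded oligodendrocytes in Far1os (3.05), Far1 (2.66), Pex5l (2.29), Plekhg1 (2.14), Mal (2.05), Efr3b (1.63), Rhou (1.57) and Lrrc8c (1.56). Far1os is named as the opposite-strand transcript of Far1, and reads of the pair may not be separable. Astrocytes fell short of oligodendrocytes in Hif3a (-2.86), Plagl1 (-2.83), Zbtb16 (-1.94), Amer2 (-1.59), Sesn3 (-1.45), Cpeb4 (-1.37) and Mfge8 (-1.24). Doc2b (-4.92, adjusted p = 0.0387 by limma) did not pass with edgeR (adjusted p = 0.904). Against endothelial cells the differences were positive in Efr3b (3.37), Azin1 (2.21), Far1 (1.99) and the lipid transporter gene Mfsd2a (1.76).

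Between the MCAO/R + Lrg1-/- and MCAO/R + WT groups, astrocytes exceeded oligodendrocytes in Ctnna3 (2.35), Ttll7 (1.99), Cryab (1.84) and Bpgm (1.46). In oligodendrocytes Ttll7 stood at 396 and 416 CPM in the MCAO/R + WT and at 335, 217 and 230 CPM in the MCAO/R + Lrg1-/- mice. Astrocytes fell short of oligodendrocytes in Kcnk1 (-4.08), Nrg1 (-4.01), Clu (-3.67), Hsd11b1 (-3.36), Cmtm3 (-3.19), Cxcl14 (-3.15), Pla2g7 (-3.02) and Tlr3 (-2.88).

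In the same comparison against endothelial cells, the differences were positive in Hba-a2 (5.07), Hbb-bs (4.88), Hba-a1 (4.83), Hbb-bt (4.27), Ttll7 (2.69), Apod (2.24), Lhfpl2 (1.96) and Tpd52 (1.38). They were negative in Kcnk1 (-4.01), Prxl2a (-3.43), Cxcl14 (-2.97), Clu (-2.91), Hddc2 (-2.83), Cmtm3 (-2.68), Prodh (-2.43) and Far1 (-2.30).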

How the results depend on the processing

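Each Lrg1-/- library held fewer than 50 astrocytes, and the MCAO/R + WT mice differed widely in the reactive genes. Counts of called genes changed with the setting. Named genes kept their direction in the fits that left out a library, except Gbp2 without MCAO/R + WT replicate 1 (-0.63, against 6.04 without replicate 2), but many lost their call: 266 of 467 values kept it for MCAO/R + WT against sham + WT, and 339 of 582 for MCAO/R + Lrg1-/- against MCAO/R + WT.

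For MCAO/R + WT against sham + WT (313 genes) the counts were 26 with Bonferroni adjustment, 477 with the 2 groups alone, 550 with no filter, 198 with thinned cells and 46 to 976 without 1 library. Telencephalic astrocytes gave 689 and the strict rule 306, both without Lrg1-/- libraries, as in the 477. In fits of all 11 libraries it was 362, and within these fits 43 under the strict rule, 185 with telencephalic astrocytes and 120 with thinned cells. For MCAO/R + Lrg1-/- against sham + Lrg1-/- (3) they were 1 with Bonferroni adjustment, 255 with DESeq2, 9 without doublets, 13 with the 2 groups alone, 22 with no filter, 8 with RLE factors, 0 without the libraries with Xist and 0 to 25 without 1 library. Over all 11 libraries it was 444, and there 8 strict, 7 telencephalic and 28 thinned. For MCAO/R + Lrg1-/- against MCAO/R + WT (325) they were 13 with Bonferroni adjustment, 20 with the 2 groups alone, 10 thinned (with 1 MCAO/R + Lrg1-/- library), 39 without the libraries with Xist and 65 to 738 without 1 library. Over all 11 libraries it was 348, and there 84 strict and 136 thinned. For sham + Lrg1-/- against sham + WT (11) they were 6 with Bonferroni adjustment, 84 with DESeq2, 95 with the 2 groups alone, 41 with no filter and 5 to 34 without 1 library. Over all 11 libraries it was 127, and there 12 strict, 58 telencephalic and 27 thinned. For the interaction (0) they were 1 with all libraries, 34 with DESeq2, 1 with no filter and 0 to 4 without 1 library. The cause of these differences was not tested. The fits of all 11 libraries, those without the libraries with Xist and the edgeR fit of differences were chosen after seeing the data.
Differences between cell types gave, with edgeR, a prior count of 5 and without 1 library, 497, 159 and 1 to 164 genes against oligodendrocytes in WT (96), 206, 132 and 0 to 113 between genotypes (54), 214, 36 and 1 to 54 against endothelial cells in WT (17), and 147, 96 and 6 to 179 between genotypes (59). The strict rule lowered the mean share of astrocytes to 0.625%, 0.67%, 0.0655% and 0.0456% of retained cells in the sham + WT, MCAO/R + WT, sham + Lrg1-/- and MCAO/R + Lrg1-/- groups, and thinning gave 0.228% in the sham + Lrg1-/- and 0.189% in the MCAO/R + Lrg1-/- group. Between the MCAO/R groups the log2 fold change turned to -0.33 for Cryab under the strict rule with all 11 libraries, and to 0.97 for Gpr158, -0.11 for Lhfpl2 and -0.76 for Sorbs2 with thinned cells.
The labels do not state whether replicate numbers pair the mice. Correlations of deviations between libraries of the same number were -0.131 to 0.106. They cannot decide the question, because the deviations of the MCAO/R + WT mice from their group mean mirror each other. With replicate numbers as a block the counts were 1, 0, 15 and 4 for the 4 comparisons in the order above, and 0 for each difference between cell types. With at least 20 astrocytes per library no strict or telencephalic fit of a comparison with Lrg1-/- groups was possible, nor a thinned one beyond MCAO/R + Lrg1-/- against MCAO/R + WT, nor one without sham + Lrg1-/- replicate 1 for its comparisons.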

Other observations

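Astrocytes were also sorted into regional classes by their expression. By the larger of the sums of telencephalic and non-telencephalic genes, 663 astrocytes were telencephalic, 493 were not and 90 were tied. Among 3970 genes with at least 50 CPM over both kinds together, 539 were higher and 419 lower in telencephalic astrocytes in all 5 WT libraries. These counts describe cells that had been sorted by expression, and no test was made. How many genes would agree in direction over 5 libraries by chance was not computed.

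Higher in telencephalic astrocytes were, by their median log2 ratio over the 5 WT mice with a pseudocount of 5 CPM, Lypd6, a modulator of nicotinic receptors (1.97), the hyaluronan link protein gene Hapln1 (1.79), the bone morphogenetic protein antagonist Chrdl1 (1.69), Fjx1 (1.60), the netrin receptor gene Dcc (1.47) and the sodium pump gene Atp1b1 (1.41). Lower were the neuregulin receptor gene Erbb4 (-3.14, from -4.27 to -1.38 over the mice), the AMPA receptor subunit gene Gria1 (-3.04) and the adenylyl cyclase gene Adcy8 (-2.70). Genes of endothelial cells were lower too, Ctla2a at -2.18 and Ly6c1 at -1.98. Whether transcripts of endothelial cells affected the sorting into regional classes was not tested.

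The log2 ratio of telencephalic to other astrocytes for Gfap was -0.58 and -0.08 in the MCAO/R + WT mice, and for Serpina3n -0.57 and -0.33, while for Fkbp5 it was -0.37 and 0.04 and for Lcn2 -1.14 and -0.81. In the sham + WT mice it ran from -0.54 to 1.02 for Gfap, from -1.18 to 0.99 for Serpina3n and from -2.30 to 0.57 for Fkbp5, at levels of few CPM for the last 2.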
